A study of Mus musculus with 17 samples.

Results

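Heat shock genes were followed in endothelial cells sorted from mouse bone marrow, 10 of the 49585 genes counted in each of 17 libraries. They comprised Hsph1, the inducible HSP70 genes Hspa1a and Hspa1b, the constitutive HSP70 gene Hspa8, the HSP90 gene Hsp90aa1, the mitochondrial chaperonin pair Hspd1 and Hspe1, the J-domain co-chaperone genes Dnajb1 and Dnajb4, and Hsf1, which encodes the heat shock transcription factor. The set was chosen by a measured value: Hsph1 was selected on its lower level in Eng knockout (KO) than in wild-type (WT) cells 4 weeks after tamoxifen, and its chaperone relatives were added to it. The KO-against-WT contrast at 4 weeks is therefore described here without a test, while the contrast at 2 weeks, the contrasts between time points and the covariation between libraries within groups were tested.

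Per the labels, KO animals carried Cdh5:CreERT2, an inducible Cre recombinase under an endothelial promoter, with an Eng allele in which loxP sites flank exons 5 and 6. Eng encodes endoglin, a co-receptor for ligands of the TGF-beta family. All animals, WT and KO, were labelled as injected with tamoxifen, at 8 weeks of age in the series' text, and the labels do not say whether WT animals carried the Cre. Long bones were crushed, and the sort, per the labels' protocol, kept CD31+, Sca1+ cells that lacked CD45 and Ter119. The series' text gives the gate without Sca1, so which of these gates the values describe is not settled. At 2 weeks there were 4 WT libraries (f1, f4, m2 and m3) and 4 KO libraries (f1, f4, m2 and m3). At 4 weeks there were 5 WT libraries (f, f3, m1, m2 and m3) and 4 KO libraries (f2, m1, m2 and m3). The letter gives the sex and the number is that of the labels. The labels do not state that each library is a separate animal, so p-values measure the spread between these libraries.

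Heat shock proteins are chaperones that bind unfolded protein and help it to fold, to be refolded or to be degraded. HSP70 proteins work in an ATP cycle in which J-domain proteins deliver the client and stimulate ATP hydrolysis, and nucleotide exchange factors such as the HSP110 protein encoded by Hsph1 release ADP and reset the cycle. When unfolded protein accumulates, HSF1 is freed from its chaperones, forms trimers and binds heat shock elements, inverted repeats of the letters GAA, in the promoters of the inducible members. HSF1 itself is regulated mainly at the protein level, and heat shock genes also respond to the warming, crushing and enzyme or antibody handling used to isolate cells from tissue.

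The members were first set beside the promoter letters that HSF1 is known to bind. RefSeq promoter windows of assembly GRCm38.p6, each spanning 250 bases before to 50 after an annotated start, were matched for 7 of the 10 members. Hspa8, Hsp90aa1 and Hsf1 had no window. Pairs of units were searched as GAANNTTC and TTCNNGAA, each of which reads the same on both strands, and runs of 3 units as GAANNTTCNNGAA and TTCNNGAANNTTC, each the reverse complement of the other. A run of 3 units contains 2 overlapping pairs. A pair was present in windows of 6 of the 7 members and a run of 3 in windows of 3, against 17% and 0.662% of the 27025 genes with a window. Dnajb1 held neither in its windows. The stretches that hold the matches are printed 5′ to 3′ on the strand of the gene, 120 bases up to the base before the start, with the matched letters in capitals. They are shown because Hsph1, whose level chose the set, and the inducible HSP70 pair differ in how many units they carry. For Hsph1 (chr5:149636337-149636456, minus strand), a second stretch inside the start of the transcript (chr5:149636287-149636308, minus strand) holds the run of 3. Before and after refer to the RefSeq start. GENCODE M21 starts Hsph1 further upstream, at base 149636376, and by that annotation the pair in the first stretch also lies inside the gene. Hspa1a (chr17:34972157-34972276, minus strand) and Hspa1b (chr17:34959239-34959358, minus strand) are identical at 119 of these 120 bases. Hspe1 (chr1:55088028-55088147, plus strand) shares its run of units with the window of the divergently transcribed Hspd1. For Dnajb4 the stretch lies before the second annotated start (chr3:152193846-152193965, minus strand).
Hsph1, before the start: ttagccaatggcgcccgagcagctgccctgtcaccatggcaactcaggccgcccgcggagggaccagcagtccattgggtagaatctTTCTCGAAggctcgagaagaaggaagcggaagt
Hsph1, after the start: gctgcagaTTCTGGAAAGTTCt
Hspa1a: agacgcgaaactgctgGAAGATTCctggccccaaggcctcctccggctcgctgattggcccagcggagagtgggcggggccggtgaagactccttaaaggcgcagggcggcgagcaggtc
Hspa1b: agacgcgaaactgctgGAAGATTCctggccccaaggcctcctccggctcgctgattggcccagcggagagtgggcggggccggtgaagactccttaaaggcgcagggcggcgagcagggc
Hspe1: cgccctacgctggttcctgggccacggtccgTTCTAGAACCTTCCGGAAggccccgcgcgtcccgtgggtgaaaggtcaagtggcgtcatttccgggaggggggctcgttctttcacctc
Dnajb4: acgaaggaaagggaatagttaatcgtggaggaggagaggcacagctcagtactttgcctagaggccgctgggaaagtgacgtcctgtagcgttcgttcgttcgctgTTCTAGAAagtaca
A match of letters is a description of the sequence and was not set against binding data.

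The libraries of the 2 time points differed in composition. At 2 weeks total counts were 26705337 to 40882715, 10886 to 13583 genes had at least 1 count, and mitochondrially encoded genes took 22.2% to 29.5% of counts. At 4 weeks the totals were 20477400 to 33726630, 15996 to 21235 genes had a count, and the mitochondrial share was 4.66% to 8.99%. No library of one time point lay in the range of the other in genes detected or mitochondrial share, so time after tamoxifen and any batch of library making cannot be told apart. SmartSeq2 amplifies full-length polyadenylated RNA without molecular identifiers, and a count of 3 or fewer was taken as not detected. This floor corresponds to 0.0734 to 0.147 CPM, the count scaled to the library total, and covers counting error only. The 9 endothelial markers examined, among them Pecam1 and Cdh5, were detected in every group. The targeted gene Eng had a log2 fold change in KO of -1.96 (SE 0.249) at 2 weeks and -1.72 (SE 0.501) at 4 weeks. Its adjusted p was 0.612 and 1 in edgeR, so the deleted gene itself was not called, and the absence of a call between genotypes does not show that a gene did not differ. Its KO libraries ran from 21.4% to 33% of the WT mean at 2 weeks and from 10.6% (m3) to 63.7% (m2) at 4 weeks. On the leading principal components WT f1, KO f1 and KO f4 stood apart from the other libraries at 2 weeks, and WT m1, WT m2 and KO m2 at 4 weeks.

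Hsph1 (ENSMUSG00000029657, chr5:149614287-149636376, minus strand) encodes the HSP110 nucleotide exchange factor. At 4 weeks its level was 51.7 CPM in WT f, 42.4 in f3, 77.5 in m1, 124.5 in m2 and 80.6 in m3. In KO it was 21.3 CPM in f2, 28.6 in m1, 55.7 in m2 and 23.1 in m3. In KO f2, m1 and m3 the level was below that of every WT library, and KO m2 was above both female WT libraries. The WT mean was 75.3 ± 32.0 CPM (SD over 5 libraries) and the KO mean 32.2 ± 16 CPM (SD over 4 libraries). The fitted log2 fold change was -1.30 (SE 0.279), and it chose the set. KO m2 had both the highest Hsph1 and the highest Eng of the KO libraries, at 73.9% and 63.7% of the WT means. In KO f2, m1 and m3 Hsph1 was at 28.3%, 37.9% and 30.6%, and Eng at 33.8%, 12.4% and 10.6%. The order of these libraries thus differed between the genes, and a relation was not tested. Leaving out each library in turn gave Hsph1 log2 fold changes from -1.57 (without KO m2) to -1.14 (without WT m2). Without WT m1, WT m2 and KO m2, which stood apart, the value was -1.38. None of the 50-base stretches of the annotated Hsph1 transcripts occurs in a transcript of another gene in GENCODE M21, so no near-identical copy was found with which its reads could be split. Erythroid markers differed between the same groups, with a summed level over 7 genes of 157.4 to 1265.0 CPM in WT and 610.0 to 2885.1 CPM in KO, highest in KO m2. All 7 had higher fitted values in KO, and the part of these cells in the members' levels was not tested.

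**Figure D1:**
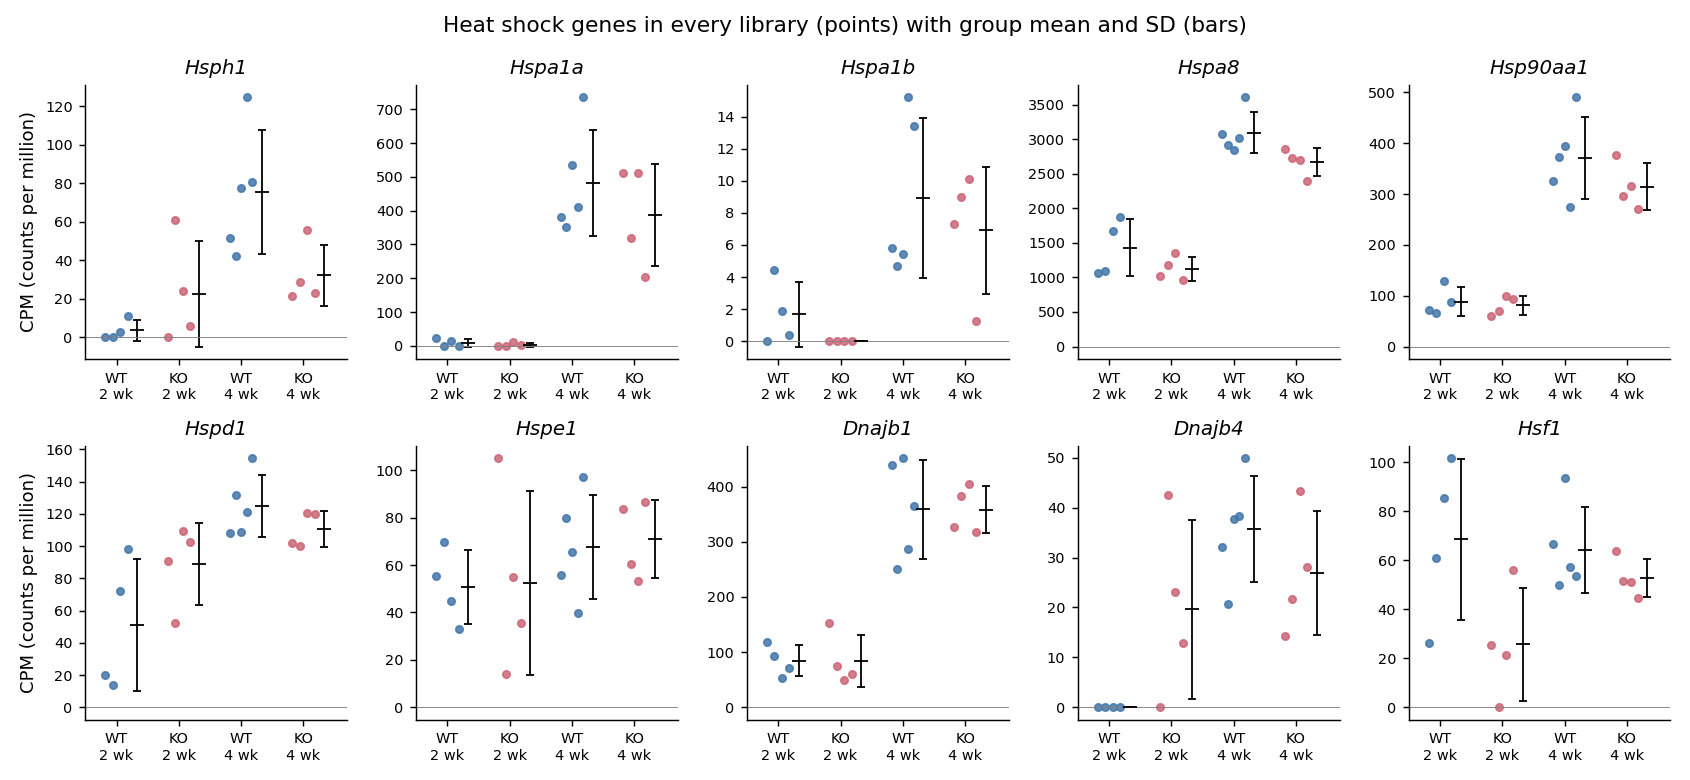
Level of each of the 10 heat shock genes in every library, in CPM on linear axes starting near 0. Blue points are WT and red points KO libraries, and the bars beside them give the group mean and SD. Hsph1 is lower in 3 of 4 KO libraries at 4 weeks, Hspa1a, Hspa1b, Hspa8, Hsp90aa1 and Dnajb1 are higher in every 4-week library than in any 2-week library of the same genotype, and Dnajb4 is at 1 count or fewer in every 2-week WT library.

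The other members differed less between genotypes at 4 weeks. Dnajb4 (ENSMUSG00000028035), a J-domain partner of HSP70, had the next most negative fitted value, -0.55 (SE 0.26). Its levels were 32.2, 20.7, 37.8, 38.3 and 49.9 CPM in WT f, f3, m1, m2 and m3, and 14.3, 21.7, 43.4 and 28.1 CPM in KO f2, m1, m2 and m3. As for Hsph1, KO m2 was the highest KO library, here above 4 of 5 WT libraries. Without WT m1, WT m2 and KO m2 the Dnajb4 value was -0.92.

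Transcripts of the HSP70 proteins that Hsph1 and the J-domain proteins serve showed smaller differences, and their WT and KO ranges overlapped. Hspa8, the constitutive HSP70 and the most abundant member, was at 3078.1, 2917.0, 2847.7, 3013.7 and 3603.7 CPM in WT f, f3, m1, m2 and m3. In KO f2, m1, m2 and m3 it was at 2864.4, 2734.4, 2700.4 and 2390.9 CPM, with a fitted value of -0.19 (SE 0.11). KO m1, m2 and m3 were below all WT libraries and f2 was within their range. Hspa1a, the main inducible HSP70 here, was at 381.2, 350.7, 534.1, 409.6 and 735.0 CPM in WT and at 509.9, 318.7, 512.5 and 204.9 CPM in KO, in the same library order. Its fitted value of -0.31 (SE 0.321) was no larger than its SE. Hspa1b, its near copy, stayed between 1.25 and 15.2 CPM over the 9 libraries (-0.34, SE 0.623; 0.03 without KO m3). Of the 50-base stretches of Hspa1a and Hspa1b, 66.3% and 62.3% also occur in transcripts of other genes, mostly in each other, so the authors' counting could split or drop reads between them and both levels are uncertain.

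Hsp90aa1, the inducible cytosolic HSP90, ran from 274.3 to 490.3 CPM in WT and from 270.0 to 377.6 CPM in KO at 4 weeks, with a fitted value of -0.22 (SE 0.193). Hspd1 and Hspe1 encode the HSP60 and HSP10 parts of the mitochondrial chaperonin. They had values of -0.18 (SE 0.162) and 0.10 (SE 0.299). Dnajb1, the main J-domain partner of inducible HSP70, had -0.00 (SE 0.181), with 250.6 to 451.4 CPM in WT and 317.9 to 405.1 CPM in KO. Hsf1, the transcription factor, had -0.26 (SE 0.216), which became 0.01 without WT m1, WT m2 and KO m2. Of the 10 fitted values 9 were below 0, that of Dnajb1 only by its sign, with a median of -0.24 beside 0.01 over the 15209 genes of the fit, of which 51.3% were above 0. No gene of that fit passed an adjusted p of 0.05 in edgeR, 0% of genes, and the groups did not overlap for 1.19% of genes and for none of the members. DESeq2 called 17 genes, Hsph1 among them. The rule used this contrast, so nothing is read from these counts.

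**Figure D2:**
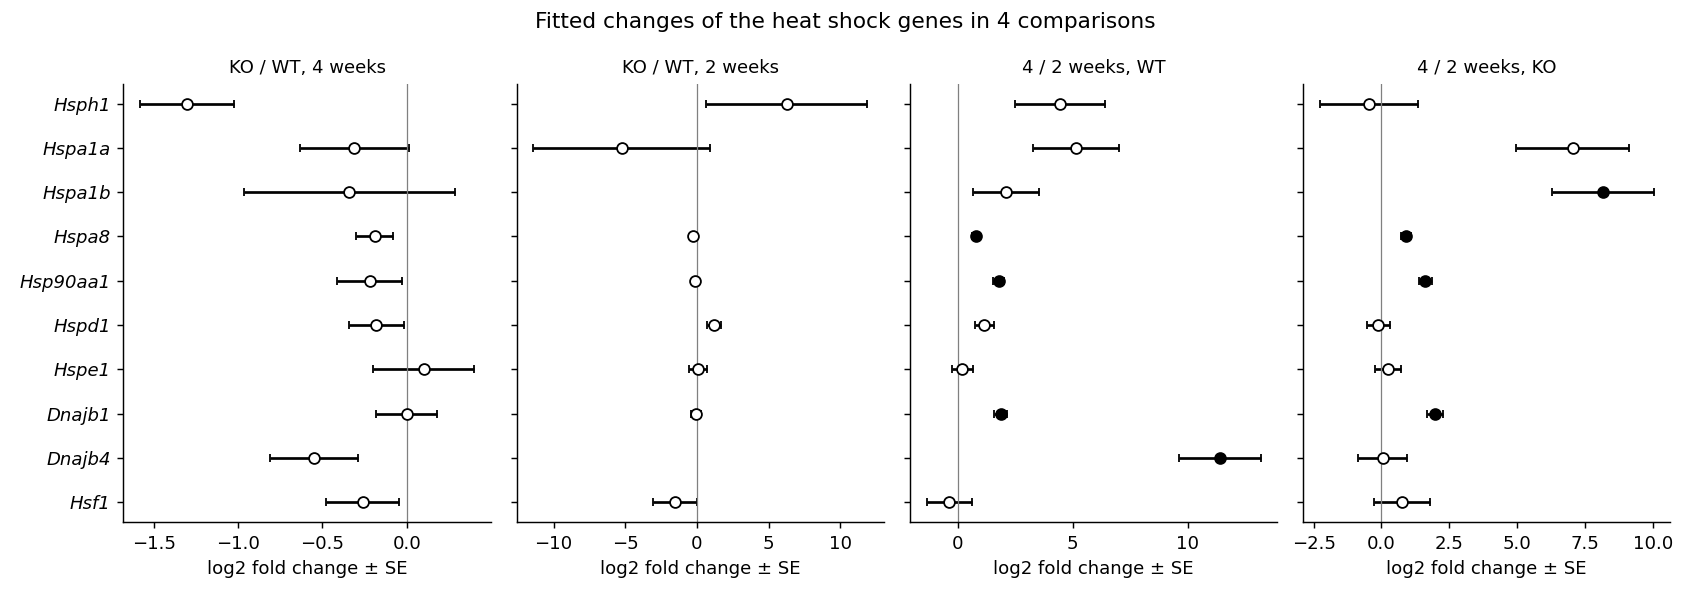
Fitted log2 fold change with its SE for each member in 4 comparisons, each panel on its own axis. Filled points passed an adjusted p of 0.05 in edgeR; the 4-week genotype panel is a description and carries no call, and Hspa1b and Dnajb4 were not tested at 2 weeks. Between time points Hspa8, Hsp90aa1 and Dnajb1 are filled in both genotypes, and the filled points of Dnajb4 in WT and Hspa1b in KO rest on 2-week groups with 1 and 2 counts.

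Levels were compared between members only after division by exon length, as TPM over the union of exons, a count divided by length and scaled to the library. In 4-week WT cells the order was Hspa8 (1788.5 ± 173.3), Hspa1a (403.0 ± 123.8), Dnajb1 (280.4 ± 78.6), Hsp90aa1 (234.2 ± 44.8), Hspd1 (116.9 ± 14.2), Hspe1 (113.1 ± 32.8), Hsph1 (25.9 ± 11.4), Hsf1 (22.6 ± 6.68), Dnajb4 (10.2 ± 2.98) and Hspa1b (7.92 ± 4.46; all SD, n = 5). The client-binding HSP70 Hspa8 was far above the exchange factor Hsph1 in this level per length. The ranges of Hspa1a, Dnajb1 and Hsp90aa1 overlapped from one to the next, as did those of Hspd1 and Hspe1, of Hsph1 and Hsf1, and of Dnajb4 and Hspa1b. The KO order differed in swaps of such neighbours: Hsf1 (17.7 ± 2.26) stood before Hsph1 (10.7 ± 5.76), and Hspe1 before Hspd1 (SD, n = 4). Dividing by the longest annotated transcript raised Hsf1 in WT from 22.6 to 40.9, so the order of Hsph1 and Hsf1 rests on which exons are counted. By that length WT and KO had the same order, with Hspe1 before Hspd1 and Hsf1 before Hsph1 in both.

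At 2 weeks, in libraries that the choice of the set did not use, Hsph1 was not lower in KO. It was at 0 CPM in WT f1 and f4, at 3.01 in m2 and at 11.2 in m3. In KO it was at 0 CPM in f1, 60.7 in f4, 24.0 in m2 and 5.66 in m3. Both groups thus held libraries without a single Hsph1 count, and the highest values were in KO f4 and KO m2. The fitted log2 fold change was 6.26 (SE 5.64), with an adjusted p of 1 by edgeR's quasi-likelihood test, and the exact permutation test, two-sided, on log2 CPM gave p = 0.257 where 0.0286 is the smallest it can give. Without KO f4 the fitted value was 0.83, and without WT f1, KO f1 and KO f4, which stood apart, it was 1.04. A genotype difference in Hsph1 was not detected with this spread between the 2-week libraries.

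Dnajb4 was almost undetected in 2-week WT cells. There it had 1 count in f1 and 0 counts in f4, m2 and m3. In KO it had 1 count in f1, and 42.5 CPM in f4, 23.1 in m2 and 12.9 in m3, which correspond to 1442, 687 and 471 counts. KO f4, m2 and m3 held the transcript at levels within or near its 4-week range, and no WT library did. Summed over the groups, KO had 3062.1 times the WT level, with a 95% interval of 549.1 to 120991.7 that covers counting error only. The low-count filter left Dnajb4 out of the 2-week fit. The fit of all 17 libraries, in which 0.244% of genes were called for this contrast, called Dnajb4. The WT group held 1 count in all, so that call depends on how such counts are fitted and is not read as a test. The 2-week fit without the low-count filter called no gene, and so no member. The exact permutation test gave its smallest p, 0.0286, on a scale on which the single counts of WT f1 and KO f1 differ by library size alone. Fewer cells with the transcript and less of it per cell cannot be told apart in such bulk libraries, for this and every other member.

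The mitochondrial chaperonin Hspd1 was at 20, 14.0, 72.2 and 98.0 CPM in 2-week WT f1, f4, m2 and m3, and at 90.5, 52.4, 109.6 and 102.4 CPM in KO f1, f4, m2 and m3. Both WT females were below all KO libraries and both WT males were within their range. Its log2 fold change of 1.18 (SE 0.473) had an unadjusted p of 0.041 and an adjusted p of 1 in edgeR, and an exact permutation p of 0.200. The value was 0.36 without WT f1, KO f1 and KO f4, and 2.03 without KO m2 and KO m3, the libraries with the most neutrophil transcripts. Hsf1 went the other way, at 26.2, 60.9, 85.6 and 101.7 CPM in WT and at 25.4, 0, 21.3 and 56.1 CPM in KO, with a fitted value of -1.53 (SE 1.52) and an exact permutation p of 0.0571. The Hsf1 value ran from -2.80 (without KO f1) to -1.07 (without KO f4), and was -1.22 without WT f1, KO f1 and KO f4. KO f4, which had the most Hsph1 and Dnajb4 of the 2-week libraries, had no count of Hsf1. Inducible HSP70 was low in both groups, and at 0 counts in part of the libraries of each. Hspa1a was at 23.4 CPM in WT f1, 15.6 in WT m2 and 10.1 in KO m2, and at 1.18 CPM or less in the other 5 libraries. Its fitted value of -5.24 (SE 6.17) ran from -9.16 (without WT m3) to -0.33 (without WT f1). Hspa1b was at 0, 4.45, 1.87 and 0.398 CPM in WT f1, f4, m2 and m3, and at 1 count or fewer in every KO library. Summed over the groups these were 258 counts in WT and 2 in KO, a ratio of 109.6 with a counting interval of 30.0 to 909.6. WT f1, like the KO libraries, did not exceed the floor, and the exact permutation p was 0.143.

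The abundant members differed little between genotypes at 2 weeks. Hspa8 ran from 1059.9 to 1880.7 CPM in WT and from 956.9 to 1346.5 CPM in KO (log2 fold change -0.30, SE 0.17). Hsp90aa1, Hspe1 and Dnajb1 had fitted values of -0.11 (SE 0.235), 0.06 (SE 0.619) and -0.06 (SE 0.32). Of the 8 members tested, 3 were above and 5 below 0, with a median of -0.09 beside -0.06 over all 10477 genes. None of them passed the adjusted threshold, as for 0% of genes, and 1 had an unadjusted p under 0.05 beside 2.63% of genes. The groups did not overlap for 3.36% of genes and for none of the 10 members, counts of 3 or fewer being taken as ties. DESeq2 and voom called 149 and 12 genes at 2 weeks, without a member. Neutrophil markers differed between the same groups: the summed level of 9 genes was 22.6 to 110.0 CPM in WT and 106.9 to 4103.7 CPM in KO, highest in m2, with 8 of 8 tested genes higher in KO. Erythroid markers were at 61.4 to 179.6 CPM in WT and 277.7 to 1240.3 CPM in KO. Without KO m2 and KO m3 together Hsph1 had a fitted value of 13.05 and no member was called, and the part of these cells in the members' levels was not tested.

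The KO effect at 4 weeks less that at 2 weeks contains the contrast that chose the set, so it is given as an estimate. It was -4.91 (SE 2.7) for Hsph1, -11.36 (SE 1.99) for Dnajb4 and -1.26 (SE 0.593) for Hspd1, and 6.04 (SE 2.02) for Hspa1b. The Dnajb4 and Hspa1b values rest on a 2-week group with 1 count or fewer per library, in WT for Dnajb4 and in KO for Hspa1b, and depend on how such counts are fitted. For Hspa8, Hsp90aa1, Hspe1 and Dnajb1 it lay between -0.16 and 0.09. The median over the 10 members was 0.07, beside 0.03 over 13515 genes.

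Hspa8, Hsp90aa1 and Dnajb1 rose between the 2-week and the 4-week libraries in both genotypes. Fitted values were above 0 at 4 weeks for 9 of 10 members in WT and 8 of 10 in KO, beside 60.5% and 61.7% of all genes. These contrasts were taken from the fit of all 17 libraries, which tested all 10 members, and their 4-week samples are those that chose the set. In WT, Hspa8 rose from 1426.4 ± 412.4 CPM (SD, n = 4) to 3092.0 ± 299.4 CPM (SD, n = 5), with a fitted log2 value of 0.80 (SE 0.17, adjusted p 0.0103, edgeR). Hsp90aa1 rose from 88.6 ± 28.1 to 371.7 ± 80.9 CPM, with a fitted log2 value of 1.77 (SE 0.235, adjusted p 4.53e-04, edgeR). Dnajb1 rose from 84.2 ± 28.0 to 358.7 ± 89.4 CPM, with a fitted log2 value of 1.87 (SE 0.281, adjusted p 0.00121, edgeR). In each of these 3 genes all 5 libraries at 4 weeks were above all 4 libraries at 2 weeks. CPM at 2 weeks is lowered by the mitochondrial share of counts, whereas the fitted values are scaled by TMM over genes.

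The same 3 genes rose in KO. Hspa8 went from 1125.6 ± 174.7 to 2672.5 ± 200.6 CPM (SD, n = 4 each), with a fitted log2 value of 0.89 (SE 0.18, adjusted p 0.00775, edgeR). Hsp90aa1 went from 81.2 ± 18.7 to 314.8 ± 45.8 CPM, with a fitted log2 value of 1.61 (SE 0.242, adjusted p 0.00132, edgeR). Dnajb1 went from 83.8 ± 47.0 to 357.9 ± 42.6 CPM, with a fitted log2 value of 1.96 (SE 0.298, adjusted p 0.00147, edgeR). Each call held under every scaling, filter and tool tried, and when each library of the same genotype was left out in turn.

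Low counts at 2 weeks set what could be said of the inducible members. Dnajb4 had 5024 counts at 4 weeks and 1 count at 2 weeks in WT, and a log2 fold change of 0.04 (SE 0.908) in KO. Hspa1b had 694 counts at 4 weeks and 2 counts at 2 weeks in KO, and a log2 fold change of 2.10 (SE 1.43) in WT, 3.53 without the 2-week WT f4 library. In 2-week WT cells for Dnajb4, and in 2-week KO cells for Hspa1b, every library had 1 count or fewer. The size of these differences depends on how such counts are fitted, and the calls of Dnajb4 in WT and Hspa1b in KO are not read as tests. As ratios of summed levels the differences are 5283.4 for Dnajb4 in WT, with a counting interval of 947.8 to 208724.1, and 437.8 for Hspa1b in KO, with one of 120.7 to 3622.4. Hspa1a was at 23.4 CPM or less in the 2-week libraries and at 204.9 CPM or more in the 4-week libraries. Its fitted log2 fold changes of 5.15 (SE 1.87) in WT and 7.03 (SE 2.08) in KO had adjusted p of 0.125 and 0.0551 in edgeR, and DESeq2 called both. Without the 2-week KO m2 library the KO value was 9.60, with an adjusted p of 0.0274 in edgeR. Hsph1, whose 4-week values chose the set, is given without a test, with log2 fold changes of 4.44 (SE 1.94) in WT and -0.47 (SE 1.8) in KO, the latter 2.33 without the 2-week KO f4 library. Its WT libraries at 4 weeks were all above those at 2 weeks, whereas in KO the 2-week f4 library exceeded every 4-week library.

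Hspd1, Hspe1 and Hsf1 did not pass edgeR's test in either genotype. Hspd1 had log2 fold changes of 1.15 (SE 0.414, adjusted p 0.122) in WT and -0.12 (SE 0.419) in KO. Its WT value was called by DESeq2 (adjusted p 0.0228), with at least 10 counts in every library (adjusted p 0.0491, edgeR) and without the 2-week WT m3 library (1.60, adjusted p 0.0254, edgeR). Hspe1, its co-chaperonin, had 0.19 (SE 0.448) and 0.24 (SE 0.472). Hsf1, whose protein drives the heat shock response, had -0.38 (SE 0.98) in WT and 0.76 (SE 1.04) in KO. In all, 4 of 10 members were called higher in each genotype, Dnajb4 in WT and Hspa1b in KO being the calls not read as tests, and none was called lower. Over all genes 5.74% were called higher and 2.29% lower in WT, and 5.7% higher and 1.86% lower in KO. The groups did not overlap, with 4 weeks higher, for 8 of 10 members in WT beside 16.9% of genes, and for 5 of 10 in KO beside 21.1% of genes. The median of the members was 1.82 in WT and 0.83 in KO, beside 0.27 and 0.34 over all genes. The 8 in WT include Hsph1, whose 4-week values chose the set, and Dnajb4, and the 5 in KO include Hspa1b. Both medians include these genes. The tallies and medians are descriptions, and no test is read from them.

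The 2-week detection of the members was checked against that of other genes. Hsph1 was at 3 counts or fewer in 3 of the 8 libraries, Hspa1a in 4, Hspa1b and Dnajb4 in 5 and Hsf1 in 1, and the other 5 members in none. So 5 of 10 members had at least 1 such library, beside 63.9% of the genes of the 4-week fit, which held all 10 members, and 46.9% of the genes of the 2-week fit, which held 8. At 4 weeks no member was at or below 3 counts in any library.

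The rest of the chaperone network was described with 83 further genes: HSP70, HSP90, J-domain and small heat shock families, cytosolic co-chaperones, the TRiC chaperonin, heat shock factors and endoplasmic reticulum chaperones. Between genotypes none of the 72 tested at 2 weeks and none of the 81 tested at 4 weeks passed the threshold, with medians of -0.23 and -0.04 beside -0.06 and 0.01 over all genes. Between time points 10 of 79 were called higher and 1 lower in WT, beside 5.74% and 2.29% of all genes. In KO 12 were called higher and none lower, beside 5.7% and 1.86%. The counts called higher include Hspa1l in both genotypes and Dnaja4 in KO, whose calls are not read as tests, as given below. The medians of the 79 genes were 0.46 and 0.67, nearer to those of all genes than the members' were. Among HSP90 relatives the constitutive Hsp90ab1 rose by 0.67 in both genotypes (SE 0.16 in WT and 0.169 in KO; adjusted p 0.0206 and 0.0284, edgeR), less than the inducible Hsp90aa1, a difference between genes that was not tested. Among endoplasmic reticulum chaperones Hspa5, the HSP70 of that compartment, rose by 2.23 (SE 0.319, adjusted p 8.76e-04, edgeR) in WT and by 2.36 (SE 0.328, adjusted p 7.01e-04, edgeR) in KO. Hsp90b1, the HSP90 of that compartment, rose by 1.21 (SE 0.251) in WT and by 1.31 (SE 0.264) in KO. Dnaja1, a cytosolic J-domain protein, rose by 1.03 (SE 0.155) in WT and by 0.94 (SE 0.163) in KO. Serpinh1, a collagen chaperone, was called in WT (1.83, SE 0.328, adjusted p 0.00344, edgeR) and not in KO (0.71, SE 0.336). The difference of its KO and WT changes, -1.11 (SE 0.46), had an adjusted p of 0.432 in edgeR.

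Further genes of the lists called higher were Pdia3 and Atf4 in both genotypes, Pdia4 and Manf in WT, and Dnajb9, Dnajb11, Pdia6 and Herpud1 in KO. Hspa1l in both genotypes and Dnaja4 in KO were also called, but were nearly undetected in the 2-week libraries concerned and entered the fit through libraries in which they are high, so those calls are not read as tests. These genes are named from the calls. The difference of the KO and WT changes was called for none of the 79 genes in edgeR.

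Several chaperones did not pass the test between time points. The small heat shock gene Hspb1, abundant at both times, had 0.43 (SE 0.181) in WT and 0.33 (SE 0.19) in KO. Hspa9, the mitochondrial HSP70, had 0.01 (SE 0.238) and 0.74 (SE 0.258). The HSF1 targets Bag3, Stip1, Ahsa1 and Chordc1 had values of 0.85, 0.68, 0.15 and -0.43 in WT, with SE from 0.496 to 0.995. In KO the values were 1.10, 1.49, 1.72 and -0.29, with SE from 0.556 to 1.06, and none of these passed the test. Fkbp4, an HSP90 co-chaperone, was by contrast called lower in WT (-0.93, SE 0.218, adjusted p 0.0192, edgeR). None of the 8 TRiC subunits was called in either genotype, with medians of -0.01 and -0.11.

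Immediate early genes, which are induced within minutes by handling and many other stimuli, were higher in the same libraries. All 19 tested were higher at 4 weeks in each genotype, and 12 were called in each, beside 5.74% of all genes in WT and 5.7% in KO. Fos rose by 3.46 (SE 0.528) in WT and by 3.53 (SE 0.545) in KO, and Jun by 2.07 (SE 0.223) and 2.54 (SE 0.238), all on the log2 scale. Their summed level over 20 genes was 2008.6 to 3703.6 CPM at 2 weeks and 12878.1 to 20622.9 CPM at 4 weeks. The summed level of the 10 heat shock genes was 1324.3 to 2284.5 CPM at 2 weeks and 3487.8 to 5643.6 CPM at 4 weeks. Of the 9 endothelial markers all had higher fitted values at 4 weeks in each genotype and 4 were called in each, beside the same shares of all genes. Markers of other cell types were compared between the same groups. In KO 7 of 7 neutrophil markers had lower fitted values at 4 weeks (median -4.66, 1 called), with summed levels over 9 genes of 106.9 to 4103.7 CPM at 2 weeks and 37.3 to 75.4 CPM at 4 weeks. All 4 macrophage markers tested had higher ones (median 6.70, 1 called), at summed levels over 5 genes of 0 to 39.5 CPM and 17 to 28.5 CPM. In WT 4 of 7 neutrophil markers were lower and 3 of 4 macrophage markers higher, and none was called. The 5 erythroid markers tested had higher fitted values at 4 weeks in each genotype, and none was called. The 6 mesenchymal markers summed to 37.4 to 157.5 CPM at 2 weeks and 181.7 to 445.4 CPM at 4 weeks in WT. In KO they summed to 103.5 to 166.7 CPM and 242.9 to 321.6 CPM. Of the 5 mesenchymal markers tested, 4 had higher fitted values in WT (median 1.46) and 2 in KO (median -0.03), and none was called. Between genotypes no immediate early gene passed the threshold at either time. The part of other cell types, of cell handling, of library composition and of time in the members' levels was not tested.

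**Figure D3:**
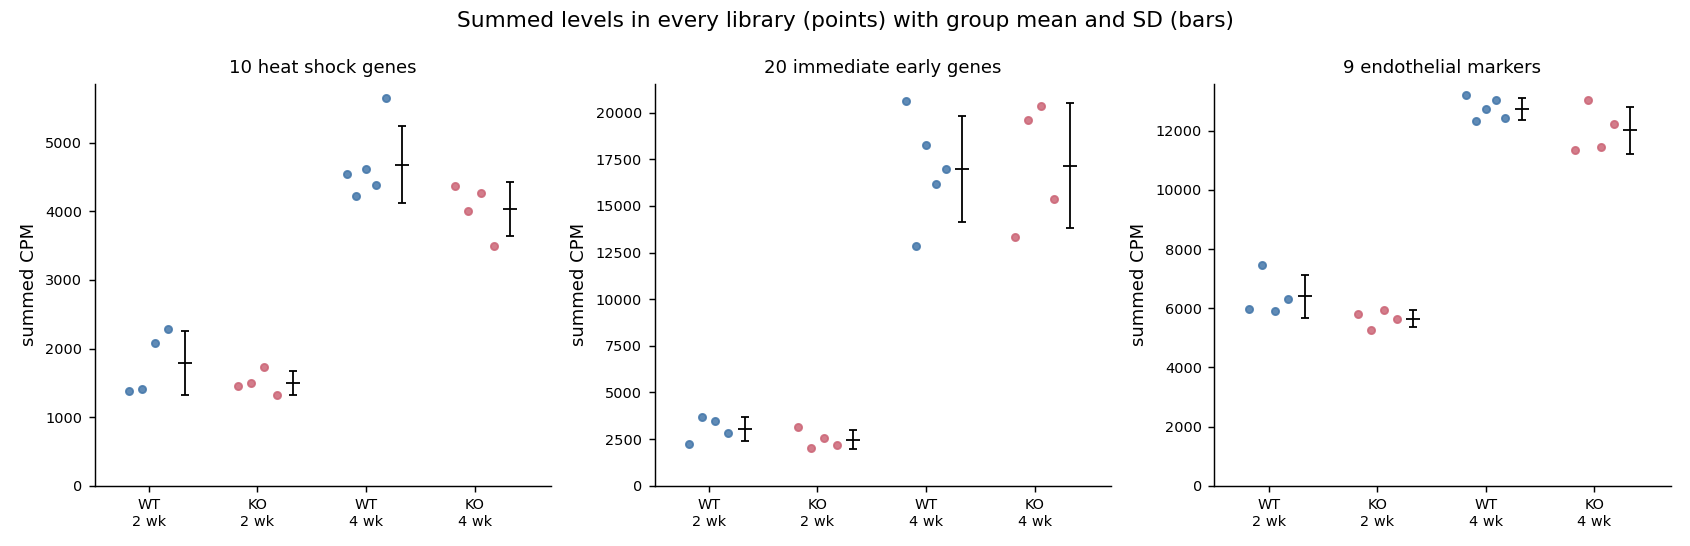
Summed CPM of the 10 heat shock genes, of 20 immediate early genes and of 9 endothelial markers in every library, on linear axes from 0. Blue points are WT and red points KO libraries, and bars give the group mean and SD. In all 3 panels every 4-week library lies above every 2-week library.

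The sex of the animals was a term of the reported fits. Without it Hsph1 at 2 weeks was 2.60 in place of 6.26, and Hspa1a -1.76 in place of -5.24. In the fit of all libraries 8 of 10 members had higher fitted values in males, with a median of 0.24 beside 0.09 over all genes. No member was called, beside 0.0296% of genes. Hspd1 had the smallest p of the members, with a log2 fold change of 0.75 (SE 0.304, unadjusted p 0.027, adjusted p 1, edgeR).

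The members were then compared within groups, after subtraction of each group's mean at each time point, which removes the contrast that chose the set. Over the 9 libraries at 4 weeks Dnajb4 had the highest Pearson's r with Hsph1, and Hspa1b the highest Spearman's rho. For Dnajb4 Pearson's r was 0.737 (exact permutation p = 0.0396, adjusted 0.234) and Spearman's rho was 0.733 (exact permutation p = 0.0271, adjusted 0.175). Without KO m2 and WT m2, the 2 libraries farthest from the median of Hsph1, r was 0.738. Hspa1b followed with r of 0.595 and rho of 0.750, and r fell to 0.385 without those 2 libraries. Hspa1a had 0.352 and Hspd1, Dnajb1, Hsf1, Hspa8 and Hsp90aa1 lay between -0.310 and 0.0498. Hspe1 had -0.635, which became 0.0297 without the same 2 libraries. With deviations taken from means by group and sex, Dnajb4 had r of 0.506 (exact permutation p = 0.280) and Hspa1b had 0.686. Without the same 2 libraries these became 0.299 and 0.633.

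Over the 8 libraries at 2 weeks Dnajb4 also had a positive r with Hsph1, 0.713 (exact permutation p = 0.0938, adjusted 0.268), which was 0.327 without KO f1 and WT f1. Only 3 of those libraries held Dnajb4 above the floor. Hspa8 had r of 0.844 (exact permutation p = 0.0208, adjusted 0.234) and rho of 0.850 (exact permutation p = 0.0174, adjusted 0.175), and 0.889 without the same 2 libraries, whereas its r at 4 weeks was -0.190. Dnajb1 and Hspe1 had r of -0.806 (exact permutation p = 0.0521, adjusted 0.234) and -0.774 (exact permutation p = 0.0347, adjusted 0.234). None of the 18 relations computed passed adjustment. Over all genes of the fits the median r with Hsph1 was -0.113 at 4 weeks, where 2.76% of genes exceeded 0.7, and 0.049 at 2 weeks, where 6.71% did. Over the 45 pairs of members the median r was 0.154 at 4 weeks and 0.047 at 2 weeks, beside 0.010 and 0.014 over pairs of all genes. Positive r was found in 28 of these pairs at 4 weeks and in 26 at 2 weeks.

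**Figure D4:**
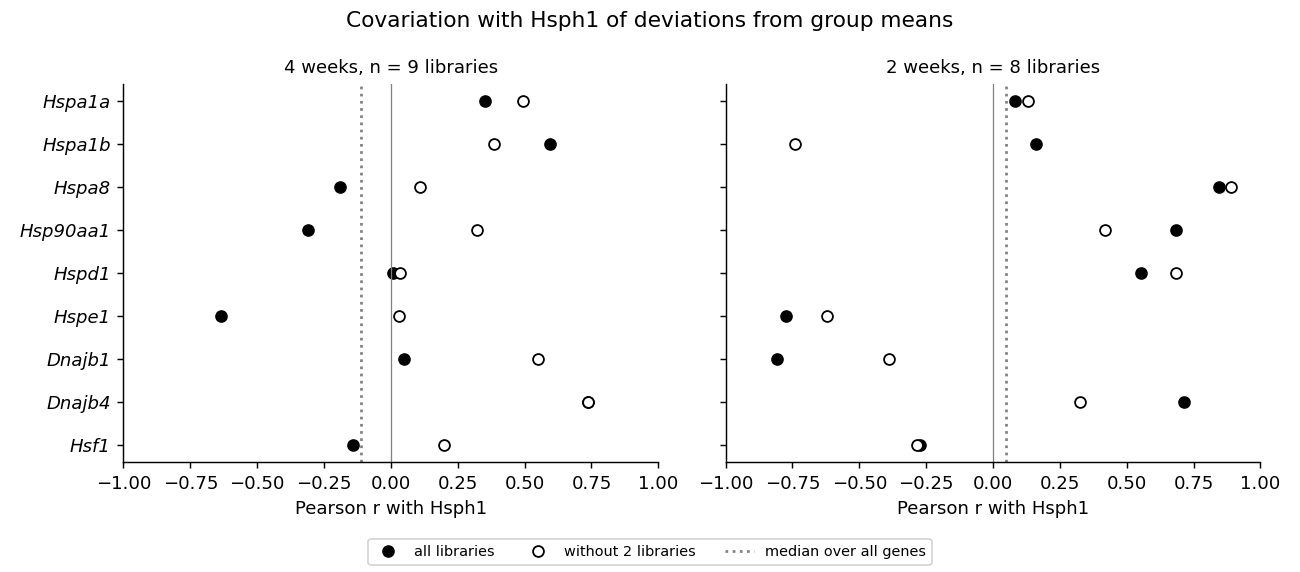
Pearson r of each member with Hsph1 over libraries, after removal of group means, at 4 weeks (left) and 2 weeks (right). Filled points use all libraries, open points leave out the 2 libraries farthest from the Hsph1 median, and the dotted line is the median over all genes. Dnajb4 has the highest r at 4 weeks, 0.737, with an open point at nearly the same place. With means by group and sex, which are not drawn, its r was 0.506.

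The genes most like Hsph1 were taken as the 5 with the highest r over the 9 libraries at 4 weeks, among 12471 genes with a mean count of at least 50. None was a chaperone of the lists. They were Kansl1l (0.974), Ccne2 (0.971), Zfp707 (0.968), Tapbpl (0.949) and 2410006H16Rik (0.939). As the highest of many genes these values describe these libraries, and they carry no test. At 2 weeks the r with Hsph1 was 0.605 for Kansl1l, 0.347 for 2410006H16Rik, 0.234 for Zfp707, 0.209 for Tapbpl and -0.348 for Ccne2. Of the 8 libraries at 2 weeks, Zfp707 was above the floor in only 3 and Ccne2 in 6, and Hsph1 itself was not detected in 3.

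The annotation limits some levels. Besides the Hspa1a and Hspa1b pair, 39.4% of the 50-base stretches of Hspa8, 47.5% of those of Hsp90aa1, 42.1% of those of Hspd1 and 22.8% of those of Hspe1 also occur in transcripts of other genes. For Dnajb1 the share was 0.412%, and for Dnajb4 and Hsf1, as for Hsph1, it was 0. The exons of Hspd1 and Hspe1 overlap on opposite strands at their shared start, those of Hspa1a overlap Gm20481 on the other strand, and those of Hspa8 overlap 3 small nucleolar RNA genes on its own strand (Snord14c, Snord14d and Snord14e). Whether the authors' counting used strand is not given in the sources used here, so reads from those overlaps cannot be told apart. No such overlap of exons was found for Hsph1, Hsp90aa1, Hspa1b, Dnajb1, Dnajb4 or Hsf1.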

How the data were processed

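RNA of sorted bone marrow endothelial cells was sequenced as SmartSeq2 libraries, and the authors deposited 1 table of raw read counts per gene for each of 17 libraries, not normalized. The submitters' processing notes name cutadapt, STAR, HTSeq 0.6.1p1 and the builds GRCm38 and mm10, without their roles, and the strand setting and treatment of multi-mapping reads are not given in the sources used here. Symbols came from GENCODE M21 (GRCm38) and matched 49326 of 49585 identifiers. The members and gene lists were chosen with earlier results of these data known, and so was the rule for named genes: all members, listed chaperones and immediate early genes, and the 5 genes most like Hsph1. Genes were filtered with filterByExpr, scaled by TMM and fitted with edgeR 4.0.16's robust quasi-likelihood test in R 4.3.3, with genotype and sex as terms, separately at 2 and 4 weeks, and jointly over 17 libraries for contrasts between times and sexes. P-values were adjusted over all genes by Benjamini-Hochberg at 0.05. SE were taken from the fitted statistic, and the covariation used log2 CPM with a prior count of 2. Exact permutation tests used scipy 1.17.1 in Python 3.11.15. Alternatives used DESeq2 1.42.0, limma 3.58.1 (voom), other scalings and filters, and left out libraries; those without groups of libraries together or without mitochondrial genes in the scaling were chosen after seeing the data. The scripts were tested on simulated data. Within groups no pair of libraries matched within sampling noise, the lowest chi-square per degree of freedom being 47.1. Intervals and floors cover counting error only.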

Additional observations from a re-analysis of the deposited data

Results flagged for a closer look

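Hspa1a, the inducible HSP70, was at 10.1 CPM in KO m2 at 2 weeks and at 1.18 CPM or less in the other 3 KO libraries of that time, a gap of 0.883 of the group's range. It was the 1 library of this kind in 38 combinations of gene and group examined, and chance marks about 1 in 20 groups. KO m2 also had the highest summed neutrophil markers of the 2-week libraries, 4103.7 CPM, and their part in the Hspa1a level was not tested.

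The KO effect on Dnajb4 was estimated at -11.36 (SE 1.99) as the 4-week less the 2-week effect on the log2 scale. Its call in edgeR was lost in 14 of 17 fits that each left out 1 library, with DESeq2 size factors and with no low-count filter, and a minimum of 10 counts in every library left the gene untested. DESeq2 called it. The value contains the contrast that chose the set and is a description. In 2-week WT cells the transcript had 1 count in all, so the size depends on how such counts are fitted.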

How the results depend on the processing

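In KO against WT at 2 weeks, where edgeR called 0 genes, DESeq2 called 149, voom 12 and the joint fit 33 with 1 member. That member was Dnajb4, whose call is not read as a test. At 4 weeks DESeq2 called 17 genes with 1 member, Hsph1, in the contrast that chose the set, so nothing is read from that call. For the difference of KO effects (14 genes, 1 member) DESeq2 called 929 genes and 2 members, no low-count filter 6 and 0, at least 10 counts in every library 0 and 0, and DESeq2 size factors 0 members. Between times in WT (1086 genes, 4 members) DESeq2 called 2090 genes and 7 members, no filter 580 and the minimum of 10 counts 639 genes. In KO (1022 genes) the counts were 2144, 567 and 626. Where called between times, Hsph1 and Dnajb4 in WT and Hspa1b in KO are not read as tests. For sex (4 genes) DESeq2 called 75 and the minimum of 10 counts 0. Leaving out each library gave 0 to 0 genes in both genotype contrasts, 7 to 52 (members 0 to 1) for the difference of effects, 520 (without 4-week WT f) to 1126 in WT over time, 604 (without 4-week KO f2) to 1300 in KO over time (members 4 to 5 in both), and 2 to 5 for sex. The cause of these shifts was not tested.

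Some directions turned, none of them called. Leaving out each library at 4 weeks gave -0.75 to 0.03 for Hspa1b, -0.06 to 0.34 for Hspe1 and -0.11 to 0.11 for Dnajb1 between genotypes. At 2 weeks Hspa1a was -5.24 (SE 6.17) in edgeR and 1.51 with voom. Without KO m2 and KO m3 Hspa8 was 0.00, Hspe1 -0.13 and Dnajb1 0.05. Hspe1 was -0.15 with voom, and Dnajb1 0.01 with upper quartile scaling. Leaving out each library gave -0.59 to 0.43 for Hspe1 and -0.31 to 0.08 for Dnajb1. Over time it gave -0.02 to 0.32 for Hspe1 in WT, and in KO -1.05 to 2.33 (without 2-week KO f4) for Hsph1, -0.42 to 0.02 for Hspd1, -0.06 to 0.67 for Hspe1 and -0.30 to 0.97 for Dnajb4. The covariation with Hsph1 turned with means by group and sex for Hspa1a (-0.0816) and Hspd1 (-0.544) at 2 weeks and for Hspd1 (-0.0910) and Dnajb1 (-0.0727) at 4 weeks, and with library totals for Hspa8 (0.154) and Hsf1 (0.0350) at 4 weeks.

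With the replicate number as a block, Hsph1 was 2.71 at 2 weeks and -1.45 at 4 weeks, Hspe1 was -0.19 and Hspa1a -0.47 at 2 weeks, Hspa1a was -0.74 and Hspa1b -0.99 at 4 weeks, and 0 genes were called at either time. Deviations of same-numbered libraries correlated between -0.0237 and 0.16, so the numbers were not taken to pair samples.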
